A study of Homo sapiens with 12 samples.

Results

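The genes followed here are 10 markers used to diagnose or type mantle cell lymphoma, a cancer of mature B cells: SOX11, CD5, ROR1, CD200, FMOD, MS4A1 (CD20), FCER2 (CD23), MME (CD10), CD24 and ATM. Every probe set that names 1 of these genes was taken, whatever its value, which gave 31 of the 54613 probe sets that are not controls, for 10 of the 19775 genes with a probe set of their own. No probe set names a member together with another gene. RNA came from 3 cultured human lines of the disease, Mino, Rec-1 and SP-49, on 12 Affymetrix arrays with biotin-labelled cRNA. Each line was kept for 24 h either with 0.1% DMSO (mock, 2 arrays) or with 1 µM compound E (inhibitor, 2 arrays), a gamma-secretase inhibitor that keeps Notch receptors from being cut into their active form. Mino was grown in RPMI with 15% serum, and Rec-1 and SP-49 in RPMI with 10%. Serum and line therefore cannot be told apart where Mino is compared with another line, and each line is a single cultured line, so a difference between lines is one between these cultures. The sources used here do not say whether the 2 arrays of a group came from separate cultures, so the p-values describe the spread between arrays alone, and part of it may be technical.

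Mantle cell lymphoma is recognised by cyclin D1, produced in excess after a translocation, on a B cell that carries CD20 and CD5 and usually lacks CD23 and CD10. SOX11 is a transcription factor of nervous system development that normal B cells do not make. It marks the conventional form of the disease and is used in diagnosis where cyclin D1 is absent. CD200, CD23 and CD24 help to separate the disease from chronic lymphocytic leukaemia, ROR1 and fibromodulin (FMOD) are surface and matrix proteins better known from that leukaemia, and ATM is a DNA-damage kinase often lost in mantle cell lymphoma.

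Levels are the deposited log2 values, so a difference of 1 is a doubling, and they ran from 0.58 to 12.78 with a median of 1.99 over all probe sets and arrays. Values near that median are dominated by background, and a difference from a group that lies there may be understated. A level of 1 probe set is compared across arrays and never with the level of another probe set. Array medians lay between 1.96 and 2.06, arrays of 1 line correlated at r = 0.979 to 0.995 over all probe sets, and arrays of different lines at r = 0.932 to 0.953. Of 13 measured B-lineage markers, 12 were above the median value on all 12 arrays. So were 19 of 19 measured genes of ATM signalling, so this count alone does not identify the cell type. CCND1, the cyclin D1 gene, lay at 8.51 and 8.54 in Mino mock, 10.12 and 10.13 in Rec-1 mock, and 10.47 and 10.43 in SP-49 mock. Of 8 measured myeloid markers, 0 were above the median value on every array, and of 2 red-cell markers 0 were. Of the other lists, 2 of 9 T-cell, 2 of 6 NK-cell, 3 of 10 stromal and 1 of 6 epithelial markers were above it on every array. In bulk RNA, fewer cells of a kind and less RNA per cell cannot be told apart. Precision is limited by having 2 arrays in a group, with a median standard error of 0.163 for an inhibitor change over all probe sets.

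Of the 31 probe sets, 22 were above the median value on all 12 arrays, 5 were below it on all 12 and 4 fell on both sides. CD200 was the gene with both of its probe sets below it everywhere. MS4A1 (4 probe sets) and CD24 (6) had no value under 7.01, whereas SOX11 (3) ranged from 3.13 to 8.68, and ATM (6) held 3 probe sets with signal in at least 1 line and 3 near the bottom of the range.

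**Figure D1:**
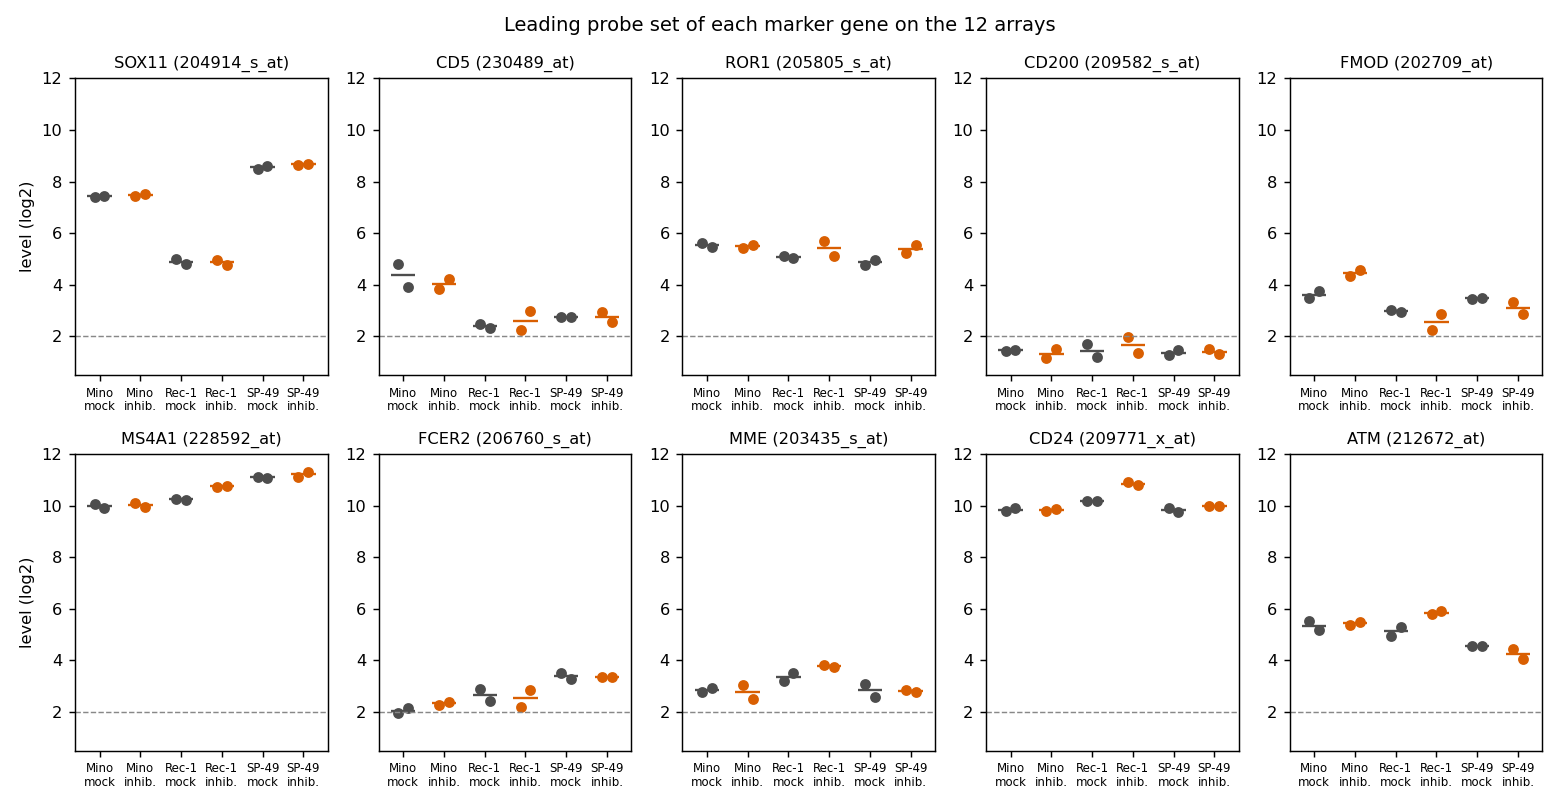
The leading probe set of each gene (highest mean over all arrays) is plotted for the 10 genes, with log2 level on the vertical axis and the 6 groups on the horizontal axis. Points are single arrays, grey for mock and orange for inhibitor, short bars are group means (n = 2), and the dashed line is the median of all values (1.99). SOX11 is lowest in Rec-1 and highest in SP-49, MS4A1 is highest in SP-49, and CD24 is highest on the 2 Rec-1 inhibitor arrays.

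The first comparison set the mock levels of the 3 lines against each other. SOX11 was much lower in Rec-1 than in the other lines, CD5 was higher in Mino than in both others, and CD20 and CD23 transcripts were highest in SP-49. CD24 was called higher in Rec-1 in 5 of its 6 probe sets against Mino and 3 against SP-49, and ATM was lowest in SP-49. With limma and an adjusted p of 0.05 over all probe sets, 12 of 31 member probe sets differed between Rec-1 and Mino, 7 higher and 5 lower in Rec-1, where 16.8% of all probe sets were called (8.2% higher, 8.63% lower). Between SP-49 and Mino 15 differed, 9 higher and 6 lower in SP-49, against 17% of all (9.04% higher, 7.95% lower). Between Rec-1 and SP-49 15 differed, 6 higher and 9 lower in Rec-1, against 19.2% of all (8.82% higher, 10.3% lower). Probe sets of 1 gene read the same transcripts, so these counts stand for 5, 6 and 5 genes with any probe set called. With 1 leading probe set per gene, 2, 6 and 4 of the 10 were called, where 24.2%, 24.1% and 27.2% of all genes were, so the share between Rec-1 and Mino was not above the background.

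SOX11 showed the widest separation of the lines among the members. Its leading probe set 204914_s_at read 7.40 and 7.45 on the Mino mock arrays, 4.99 and 4.81 in Rec-1, and 8.50 and 8.62 in SP-49. The 3 pairs of values did not overlap, and SP-49 was above Mino, which was above Rec-1. Rec-1 was 5.76-fold below Mino (log2 difference -2.53, 95% interval -2.81 to -2.24; limma adjusted p = 8e-08) and 12.7-fold below SP-49 (-3.66, -3.95 to -3.38; adjusted p = 3.23e-09). SP-49 was 2.2-fold above Mino (1.14, 0.85 to 1.42; adjusted p = 6.21e-05). The other probe sets gave the same order, with mock values of 6.71 and 6.72, 4.83 and 4.60, and 8.18 and 7.99 for 204915_s_at in Mino, Rec-1 and SP-49. For 204913_s_at they were 7.06 and 6.92, 4.02 and 4.46, and 8.35 and 8.41. Each of the 3 probe sets passed the threshold in all 3 comparisons between lines. The SP-49 over Mino difference of 204913_s_at (1.39, adjusted p = 0.00883) no longer passed without mock replicate 2 of Mino or either mock array of SP-49 (adjusted p up to 0.0622). Even in Rec-1 every SOX11 value was above the median of all values, the lowest being 3.13.

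Genes reported to go with SOX11 in mantle cell lymphoma tumours were followed as a list of 11, all of them measured. Compared with Mino, 8 were lower in Rec-1 and 0 higher, with a median difference of -1.34 where the median of all genes was 0.01. The limma threshold called 24.2% of all genes there (11.7% higher, 12.5% lower). Against SP-49, 10 were lower in Rec-1 and 1 higher, with a median of -2.01 against 0.04 for all genes and 27.2% of genes called (12.2% higher, 15% lower). Between SP-49 and Mino, 3 genes were higher in SP-49, 1 lower and 7 not called, with a median of 0.41 against -0.03 for all genes (24.1% called, 13.1% higher and 11% lower). With each array left out in turn the counts called were 7 to 8, 10 to 11 and 2 to 4.

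DBN1, the actin-binding protein drebrin, was at 5.94 and 6.21, 4.06 and 4.64, and 6.59 and 6.37 on the mock arrays of Mino, Rec-1 and SP-49, 3.31-fold lower in Rec-1 than in Mino and 4.39-fold lower than in SP-49. CDK2AP1, a cyclin-dependent kinase partner, was at 10.01 and 10.18, 8.81 and 8.69, and 10.41 and 10.44. It was 2.54-fold lower in Rec-1 than in Mino and 3.2-fold lower than in SP-49. HDGFL3, a relative of hepatoma-derived growth factor, was at 6.48 and 6.52, 5.04 and 5.03, and 7.41 and 7.41, so that the 3 lines stood in the order of SOX11. Its difference between SP-49 and Mino (0.91, adjusted p = 0.0159) was not called without any 1 of those 4 arrays (adjusted p up to 0.0867). RNGTT, an mRNA capping enzyme, went the other way and is named for that after its values were seen. It was at 6.48 and 6.14 in Mino, 6.33 and 6.13 in Rec-1, and 4.67 and 4.84 in SP-49, 2.93-fold lower in SP-49 than in Mino.

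**Figure D2:**
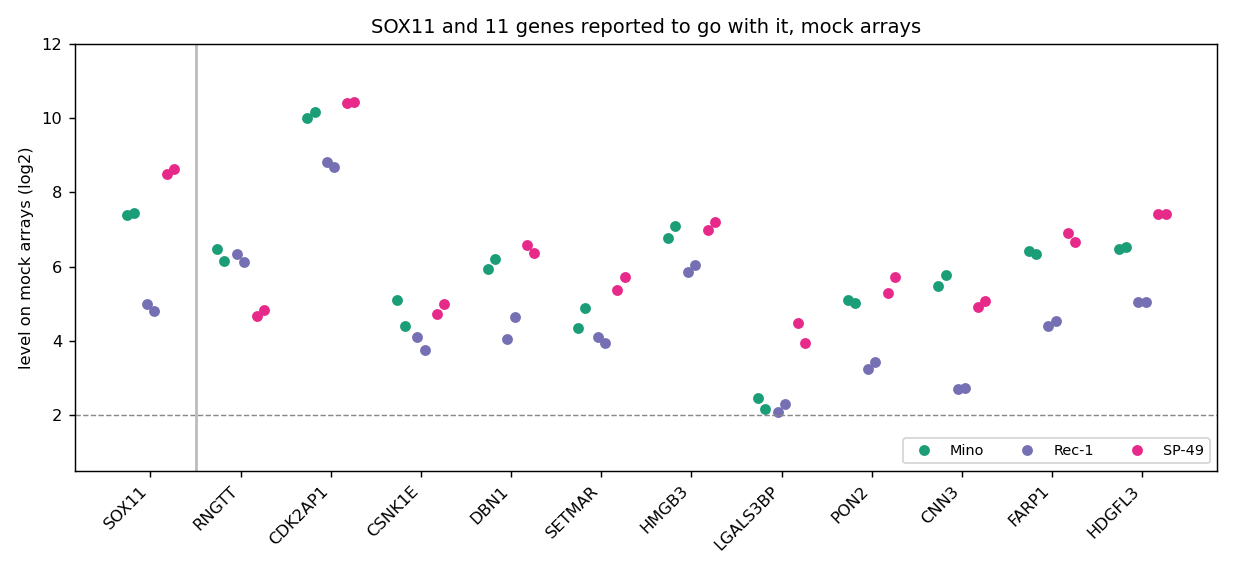
Log2 levels on the 6 mock arrays are plotted for SOX11 (left of the vertical line) and the 11 listed genes, with 2 points per line (green Mino, purple Rec-1, pink SP-49) and the median of all values as a dashed line (1.99). In 10 of the 11 genes Rec-1 was called below SP-49, and RNGTT is the exception.

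Of 8 measured relatives of SOX11, 2 were higher and 1, SOX12, lower in Rec-1 than in Mino, and 1 was higher and 1, SOX4, lower in Rec-1 than in SP-49. Between SP-49 and Mino 2 were higher and 0 lower in SP-49. Of all genes, 24.2% were called for Rec-1 against Mino, 27.2% for Rec-1 against SP-49 and 24.1% for SP-49 against Mino. SOX4, a close relative of SOX11 that B-cell precursors need, was higher than in Mino in both Rec-1 (1.04, limma adjusted p = 0.000122) and SP-49 (1.53, adjusted p = 5.8e-06). Its Rec-1 minus SP-49 difference was -0.49 (adjusted p = 0.0183), a call lost without either Rec-1 mock array or mock replicate 2 of SP-49 (adjusted p up to 0.178). SOX12, named after its values were seen, was lower in Rec-1 than in Mino by 0.74 (adjusted p = 0.0436), near the background level, and 9 of the 12 refits lacking a single array lost that call (adjusted p up to 0.324).

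CD5, a receptor that dampens antigen-receptor signalling in T cells and some B cells, was highest in Mino. Probe set 230489_at read 4.82 and 3.92 in Mino mock, 2.47 and 2.33 in Rec-1 mock, and 2.73 and 2.73 in SP-49 mock. Both Mino values lay above all others, although they also differed from each other by more than those of the other lines. Rec-1 was lower than Mino by 3.92-fold (log2 difference -1.97, 95% interval -2.61 to -1.33; limma adjusted p = 0.000453) and SP-49 by 3.11-fold (-1.64, -2.27 to -1.0; adjusted p = 0.00171). Rec-1 and SP-49 were near background, so these folds may be understated. The second probe set, 206485_at, read 3.40 and 3.47, 2.87 and 2.78, and 2.39 and 2.50. It was lower in Rec-1 by 0.61 (adjusted p = 0.0153) and in SP-49 by 0.99 (adjusted p = 0.000614), both as differences from Mino. The first of these was not called without any 1 of the 4 Mino or Rec-1 mock arrays (adjusted p up to 0.0974), nor with an intensity trend and robust prior (adjusted p = 0.0507). Rec-1 and SP-49 differed in opposite directions on the 2 probe sets (-0.33 and 0.38) and neither difference was called.

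A mixed list held 8 CD5 partners and T-lineage genes found in B cells. Of these, 2 were higher and 4 lower in Rec-1 than in Mino, and 3 higher and 3 lower in SP-49. Of all genes, 24.2% and 24.1% were called in these comparisons. LCK, the kinase that phosphorylates CD5 in T cells, was lower by 3.00 in Rec-1 (adjusted p = 1.73e-05 in the limma fit) and by 3.98 in SP-49 (adjusted p = 1.75e-06). ZAP70, a kinase of the T-cell receptor that is also made in some B-cell leukaemias, was lower by 2.22 and 2.41. LEF1, a Wnt-pathway transcription factor, was lower by 4.20 and 1.90. On the mock arrays LCK read 2.56 and 1.84 in SP-49, and ZAP70 read 2.51 and 2.28 in Rec-1 and 2.28 and 2.14 in SP-49. These values were near background, so the differences that rest on them may be understated. Of 9 measured T-cell markers, CD7 was lower than in Mino in both Rec-1 and SP-49, and CD3D was higher in Rec-1. The mean level of the 9 was 2.11 and 2.16 on the Mino mock arrays, 2.29 and 2.55 in Rec-1 and 1.92 and 1.95 in SP-49. In Mino mock CD3E, which every mature T cell makes, was at 1.79 and 1.76 and CD3G at 1.69 and 1.74, under the median value. CD3D was at 2.26 and 2.46 there, CD8A at 3.13 and 3.06 and CD7 at 4.99 and 3.87, above it. Of the 9 markers, 2 were above that median on all arrays. Their part in the differences between lines was not tested.

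ROR1, an orphan receptor tyrosine kinase that binds WNT5A, differed little between the lines. Its leading probe set 205805_s_at read 5.62 and 5.46 in Mino mock, 5.10 and 5.03 in Rec-1, and 4.77 and 4.95 in SP-49. The values did not overlap between lines, and SP-49 was 1.6-fold lower than Mino (-0.68, 95% interval -1.10 to -0.27; limma adjusted p = 0.0268). That call was lost without any 1 of the 4 arrays compared (adjusted p up to 0.185). The Rec-1 difference from Mino was -0.48 (adjusted p = 0.127), and passed without either inhibitor array of Rec-1 (adjusted p down to 0.0395). Probe set 232060_at lay between 4.69 and 4.85 on all 6 mock arrays, with no call, so the 2 probe sets with signal did not give the same order. The third, 211057_at, lay between 1.83 and 2.72, and its SP-49 difference from Mino (0.53) was called only without mock replicate 2 of Mino (0.77, adjusted p = 0.0175). Of 20 measured genes of ROR1 and planar-polarity Wnt signalling, 3 were higher and 6 lower in Rec-1 than in Mino, and 9 higher and 2 lower in SP-49. Of all genes, 24.2% and 24.1% were called in these comparisons. WNT5A was not clearly above background in any line, at 1.88 and 2.42 in Mino mock, 1.46 and 1.49 in Rec-1 and 1.53 and 1.35 in SP-49. It counts among the genes called lower than Mino in both lines, calls that were lost without mock replicate 2 of Mino or either mock array of the line compared (adjusted p up to 0.247 and 0.207).

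MS4A1 encodes CD20, the membrane protein that rituximab binds. It was high in all lines and highest in SP-49. Probe set 228592_at read 10.08 and 9.92 in Mino mock, 10.25 and 10.23 in Rec-1, and 11.10 and 11.09 in SP-49. SP-49 was above Mino in all 4 probe sets, by 1.09 to 2.11 (limma adjusted p from 9.23e-07 to 7.69e-05). It was above Rec-1 in all 4 as well, and the Rec-1 minus SP-49 differences ran from -1.39 to -0.85 (adjusted p from 9.17e-06 to 0.000416). Rec-1 was above Mino in 1 of the 4, 228599_at, which read 7.58 and 7.80 in Mino, 8.40 and 8.41 in Rec-1 and 9.74 and 9.85 in SP-49 (Rec-1 minus Mino 0.71, adjusted p = 0.00378). Of 9 other measured genes of the MS4A family, MS4A6A was the single gene called, lower by 3.12 in Rec-1 and 2.90 in SP-49 than in Mino. Of all genes, 24.2% and 24.1% were called in these comparisons.

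CD24, a small glycosylated adhesion protein of B cells, was higher in Rec-1, to a degree that depended on the probe set. Probe set 209772_s_at read 7.12 and 7.27 in Mino mock, 8.66 and 8.67 in Rec-1 and 7.02 and 7.20 in SP-49. Rec-1 was 2.77-fold above Mino (1.47, 95% interval 1.19 to 1.75; limma adjusted p = 7.95e-06) and 2.94-fold above SP-49 (1.56, 1.27 to 1.84; adjusted p = 3.91e-06). Probe set 208650_s_at gave 1.26 over Mino and 1.36 over SP-49. The other 4 gave 0.34 to 0.52 over Mino, 3 of them called, and 0.33 to 0.47 over SP-49, 1 of them called. The leading probe set 209771_x_at, at 9.79 and 9.89, 10.18 and 10.18, and 9.93 and 9.75, did not pass (0.34 over Mino, adjusted p = 0.093). All 6 probe sets had both Rec-1 mock arrays above both Mino and both SP-49 mock arrays, where 26.7% and 32.8% of all probe sets did. SP-49 and Mino differed in 0 of 6 (-0.10 to 0.19). The calls of 216379_x_at, 266_s_at and 208651_x_at over Mino were lost without either Rec-1 mock array or without mock replicate 1 of Mino (adjusted p up to 0.248). For 216379_x_at the call was also lost without either inhibitor array of Mino or either mock array of SP-49, and for 208651_x_at without mock replicate 2 of Mino. The call of 208651_x_at over SP-49 (0.47, adjusted p = 0.0217) was lost without either Rec-1 mock array or mock replicate 2 of SP-49 (adjusted p up to 0.214). CD24 has near-identical copies in the genome, so signal from the gene and from a copy cannot be told apart, in particular for probe sets whose names end in _x_at or _s_at.

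FCER2 encodes CD23, the low-affinity receptor for IgE on B cells, a known target of Notch signalling. It was low in all lines and highest in SP-49. Probe set 206760_s_at read 1.95 and 2.15 in Mino mock, 2.90 and 2.42 in Rec-1 and 3.51 and 3.26 in SP-49. The 3 pairs did not overlap, and the Mino values were at the background level. SP-49 was above Mino on the deposited scale by 1.34 (limma adjusted p = 0.000843), which is no measure of the fold change in transcript since Mino was at background. Rec-1 was below SP-49 (-0.73, adjusted p = 0.0332). The second probe set 206759_at, at 1.65 and 1.59, 1.71 and 1.89, and 2.26 and 2.37, was at or near background in all lines and differed the same way, by 0.69 over Mino (adjusted p = 0.0114) and -0.51 for Rec-1 minus SP-49 (adjusted p = 0.0497). For 206760_s_at, the difference between Rec-1 and SP-49 was not called without mock replicate 2 of Rec-1 or either SP-49 mock array (adjusted p up to 0.276), nor after quantile normalization was applied again (0.0869). The difference of 206759_at between SP-49 and Mino was not called without mock replicate 2 of either line (up to 0.092). Its difference between Rec-1 and SP-49 was lost without any 1 of the 4 Rec-1 arrays, the 4 SP-49 arrays or the 2 Mino mock arrays (adjusted p up to 0.246). CR2, another B-cell receptor known to answer to Notch, was at 1.42 and 1.29 in Mino mock, 5.63 and 5.67 in Rec-1 and 5.06 and 4.83 in SP-49.

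MME and CD200 were low in every line. MME, the membrane peptidase CD10 of precursor and germinal-centre B cells, had mock values on 203435_s_at of 2.76 and 2.94 in Mino, 3.19 and 3.52 in Rec-1 and 3.10 and 2.59 in SP-49. Rec-1 was above both other lines by 0.51, without a call (limma adjusted p = 0.144 against Mino and 0.13 against SP-49). Its other probe set, 203434_s_at, stayed between 1.31 and 1.40 on the mock arrays. CD200, an immunoglobulin-family ligand that inhibits myeloid cells, lay between 1.21 and 1.69 over both probe sets on the mock arrays, under the median of all values. FMOD, a collagen-binding proteoglycan, read 3.47 and 3.75 in Mino mock, 3.02 and 2.93 in Rec-1 and 3.44 and 3.49 in SP-49. Rec-1 was below both others on every mock array, and neither difference passed (-0.64, adjusted p = 0.0596, against Mino and -0.49, adjusted p = 0.147, against SP-49). The difference from Mino passed without either inhibitor array of Rec-1 (adjusted p down to 0.0196).

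ATM, the kinase that senses DNA double-strand breaks, was lower in SP-49 on 3 of its probe sets, of which 208442_s_at was near background in that line. The leading one, 212672_at, read 5.52 and 5.16 in Mino mock, 4.96 and 5.30 in Rec-1 and 4.58 and 4.57 in SP-49. For 210858_x_at the values were 4.84 and 4.72, 5.14 and 5.18, and 4.13 and 4.11, and for 208442_s_at 3.43 and 3.14, 3.73 and 4.04, and 2.0 and 2.42. SP-49 was below Mino by 0.77, 0.66 and 1.08 (limma adjusted p = 0.00871, 0.0133 and 0.000768), and Rec-1 was above SP-49 by 0.56, 1.04 and 1.68 (adjusted p = 0.043, 0.000532 and 1.98e-05). The last value of each may be understated, since SP-49 was near background there. Rec-1 was above Mino on 208442_s_at (0.60, adjusted p = 0.0296). The SP-49 differences from Mino of 212672_at and 210858_x_at were not called without mock replicate 1 of Mino or either SP-49 mock array (adjusted p up to 0.089). The Rec-1 difference from SP-49 of 212672_at was not called without either inhibitor array of Mino, mock replicate 2 of Rec-1 or either mock array of SP-49 (up to 0.303). The 208442_s_at difference between Rec-1 and Mino was lost without mock replicate 2 of either line (up to 0.229). NPAT, the neighbouring gene that shares its promoter region with ATM, was at 5.14 and 5.58 in Mino mock, 5.78 and 5.81 in Rec-1 and 4.85 and 5.16 in SP-49, with no call between lines. Of 19 measured genes of ATM signalling, 7 were higher and 4 lower in Rec-1 than in Mino, and 7 higher and 2 lower in SP-49. Of all genes, 24.2% and 24.1% were called in these comparisons. CDKN1A, the p53 target p21, was lower in Rec-1 than in Mino by 4.14.

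**Figure D3:**
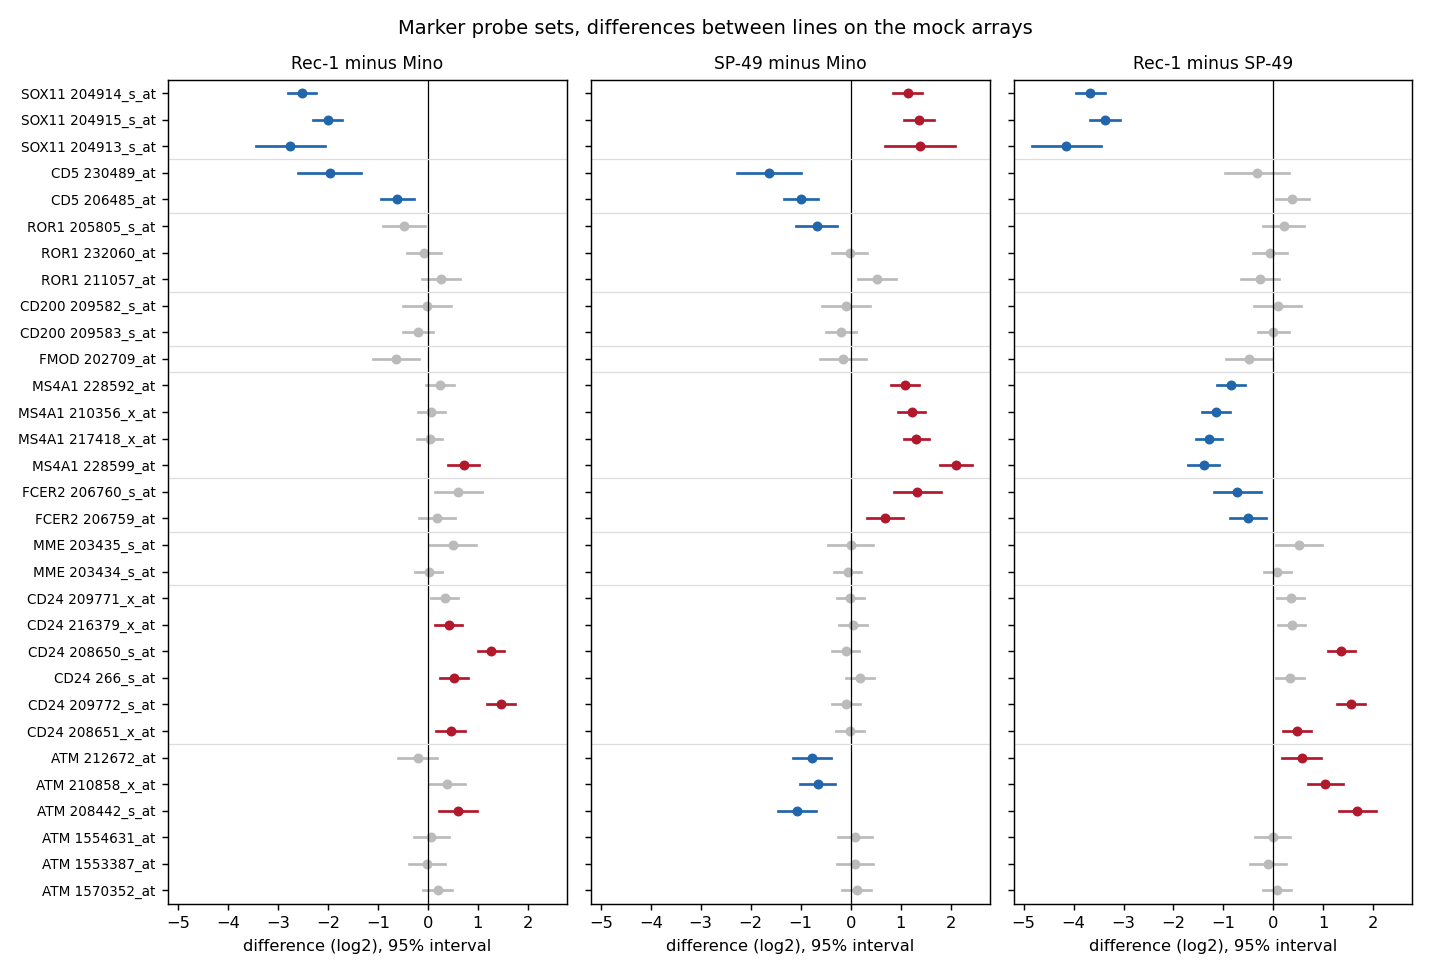
Differences between lines on the mock arrays are plotted for the 31 probe sets (rows, grouped by gene), in log2 units with 95% intervals from the limma fit. Red marks a call as higher, blue a call as lower in the line named first, and grey no call. SOX11 is called in all 3 panels and all 3 probe sets, MS4A1 in both panels with SP-49, and CD200 and MME in none.

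The second comparison asked whether blocking gamma-secretase changed these markers within each line. CD24 was called higher with inhibitor in Rec-1 in all 6 of its probe sets, and MS4A1 in 1 of its 4. SOX11, CD5, FCER2 and the other markers had no call in any line. In Rec-1, 7 of the 31 probe sets passed the limma threshold, all higher, where 3.14% of all probe sets were called (0.981% higher and 2.16% lower). These 7 stand for 2 genes. With 1 leading probe set per gene, 1 of the 10 was called, where 4.63% of all genes were. In SP-49, 0 of 31 were called by limma (2 at an unadjusted p under 0.05), against 0.0494% of all. In Mino 0 were called (1 unadjusted), against 0% of all probe sets, so Mino gives no call to read the members against.

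**Figure D4:**
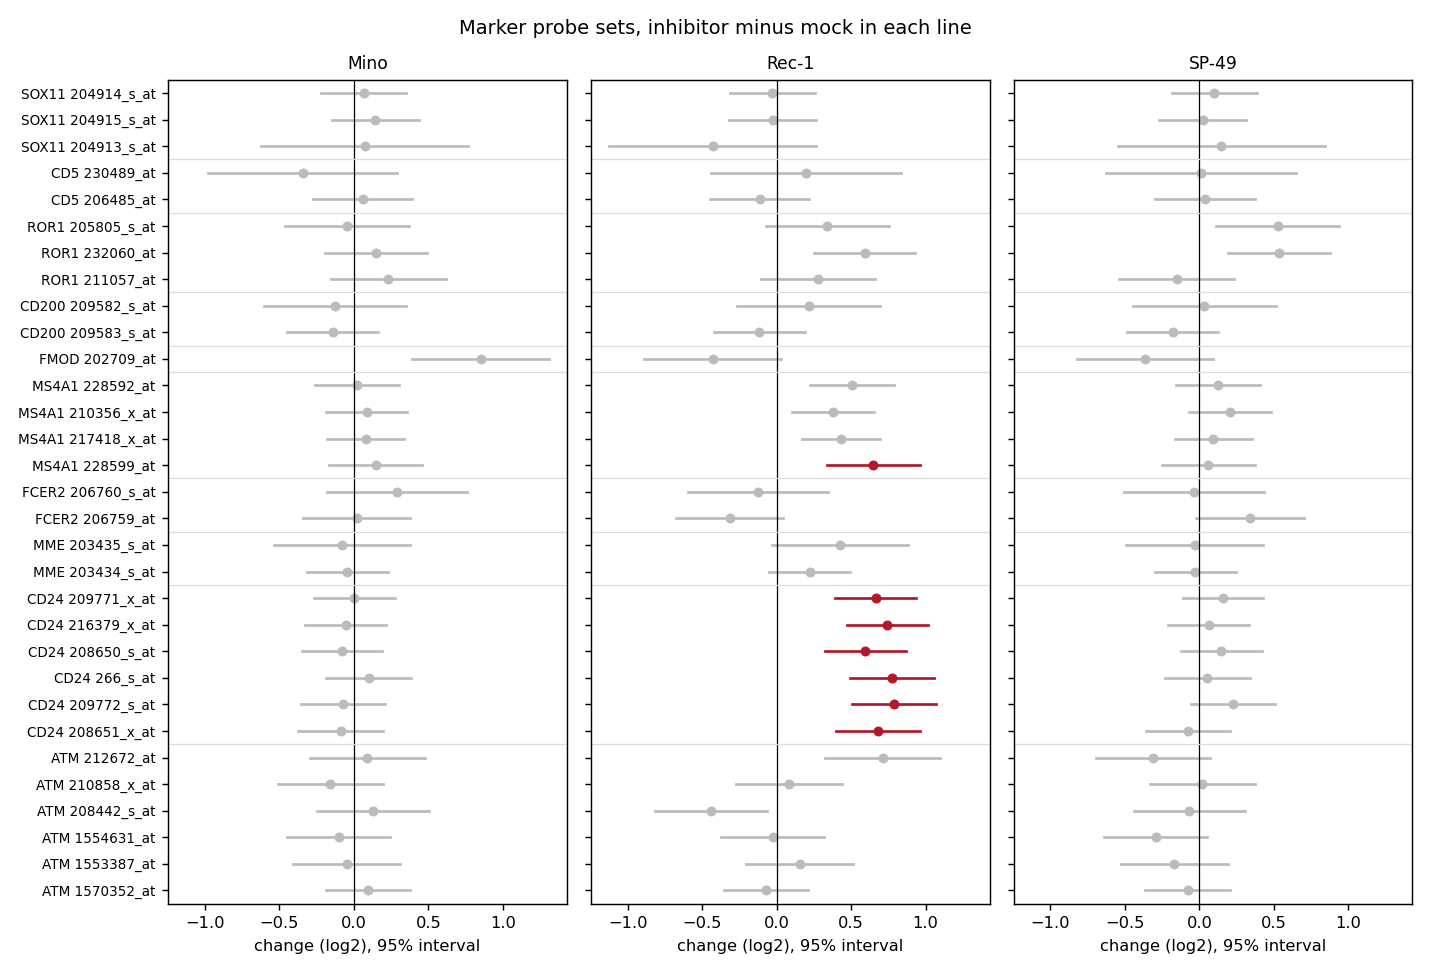
Inhibitor minus mock changes are plotted for the 31 probe sets in Mino, Rec-1 and SP-49, in log2 units with 95% intervals from the limma fit, red for a call as higher and grey for no call. The 6 CD24 probe sets and 228599_at of MS4A1 are called in Rec-1, and none is called in Mino or SP-49.

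The rise of CD24 in Rec-1 was close to equal over its probe sets, from 0.60 to 0.79 on the log2 scale, or 1.51-fold to 1.73-fold. Probe set 209771_x_at went from 10.18 and 10.18 to 10.91 and 10.78 (0.66, 95% interval 0.39 to 0.93; limma adjusted p = 0.0136), and 209772_s_at from 8.66 and 8.67 to 9.55 and 9.36 (0.79, 0.51 to 1.07; adjusted p = 0.00696). Both inhibitor arrays were above both mock arrays in all 6 probe sets, which held in that direction for 20.7% of all probe sets. The adjusted p of the 6 ran from 0.00696 to 0.023. Leaving out either Rec-1 mock array ended all 6 calls, with the adjusted p of 209771_x_at at up to 0.0894 and that of 209772_s_at at up to 0.0584. None was called when the model held only the 4 Rec-1 arrays (adjusted p from 0.13 to 0.198). The call of 208650_s_at was also lost without inhibitor replicate 2 of Rec-1 (adjusted p up to 0.138 over the arrays left out). The GAPDH difference between 3' and 5' control probe sets, a sign of RNA quality, was 0.59 and 0.49 on these inhibitor arrays and 0.41 and 0.37 on the mock arrays; its part in the result was not tested.

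The same CD24 probe sets moved little in the other lines. In Mino 209771_x_at went from 9.79 and 9.89 to 9.80 and 9.89, and the 6 changes ran from -0.09 to 0.10. In SP-49 it went from 9.93 and 9.75 to 9.99 and 10.00, and the 6 changes ran from -0.08 to 0.23. The test of the difference itself was not passed. The Rec-1 effect exceeded that in Mino by 0.66 to 0.86 (limma adjusted p from 0.0659 to 0.15) and that in SP-49 by 0.45 to 0.76 (adjusted p from 0.177 to 0.465). Over all members 0 probe sets were called for either difference (11 and 9 at an unadjusted p under 0.05), where 0.588% and 0.201% of all probe sets were. With an intensity trend and a robust prior, 7 and 4 member probe sets were called for these differences. For the difference between SP-49 and Mino 0 were called (1 unadjusted), against 0.022% of all.

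MS4A1 rose in Rec-1 in 228599_at, from 8.40 and 8.41 to 9.15 and 8.95, or 1.57-fold (0.65, 95% interval 0.34 to 0.96; limma adjusted p = 0.031). The other 3 probe sets also had both inhibitor arrays above both mock arrays, with differences of 0.51, 0.38 and 0.43 (adjusted p = 0.0582, 0.15 and 0.0819). That order held for 20.7% of all probe sets, and probe sets of 1 gene read the same transcripts. The leading one, 228592_at, went from 10.25 and 10.23 to 10.72 and 10.78. The call of 228599_at was lost without any 1 of the 4 Rec-1 arrays or either SP-49 mock array (adjusted p up to 0.155), and with a replicate block, array weights or only the Rec-1 arrays (up to 0.192). The GAPDH and ACTB control differences given for CD24 apply to these arrays too. In Mino 228592_at stayed at 10.09 and 9.95 with inhibitor, and in SP-49 it read 11.12 and 11.33, with changes of 0.02 and 0.13.

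Other B-cell surface genes also changed with inhibitor in Rec-1. Of 30 measured surface antigens that are not members, 6 rose and 3 fell there, with a median of 0.23 where all genes had 0.01 and 4.63% were called (1.68% higher, 2.95% lower). Without 1 array the count called ranged from 3 to 8, and it was 1 with only the Rec-1 arrays. Among them CD52, a small surface glycoprotein, rose by 1.08 (adjusted p = 0.001) and CD79B, a chain of the B-cell receptor, by 1.06 (adjusted p = 0.00121), and both were called with each array left out but not with only the Rec-1 arrays (adjusted p = 0.0924 and 0.0926). They are named after their values were seen. The 3 that fell were CR2, CD27 and the integrin ITGA4. The call of ITGA4 (-0.79, adjusted p = 0.0203) was lost without either Rec-1 mock array or inhibitor replicate 2, and that of CD27 (-0.87, adjusted p = 0.0458) without any 1 array except mock replicate 1 of Rec-1. The mean level of the 9 T-cell markers was 2.29 and 2.55 on the Rec-1 mock arrays and 2.20 and 2.22 with inhibitor, with CD3D called lower, and their part in these changes was not tested. CR2 went from 5.63 and 5.67 to 2.74 and 2.29, a log2 change of -3.14 that ended near background. In SP-49 CR2 fell from 5.06 and 4.83 to 2.28 and 2.11, the single call among the 30 in that line, where 0.086% of genes were called. In Mino 0 of 30 were called by limma (1 at an unadjusted p under 0.05).

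SOX11 and its listed companions had no call after inhibition. With inhibitor, 204914_s_at read 7.45 and 7.53 in Mino, 4.97 and 4.77 in Rec-1 and 8.64 and 8.68 in SP-49, with changes of 0.07 (95% interval -0.22 to 0.35), -0.03 (-0.31 to 0.26) and 0.10 (-0.18 to 0.38). For this probe set the intervals leave no room for a change of 1.5-fold in any line. On 204913_s_at the second Rec-1 inhibitor array read 3.13 against 4.48 on the first and 4.02 and 4.46 on the mock arrays. This array had the narrowest spread of signal of all 12 (SD 1.95 over probe sets). With both inhibitor arrays the change of 204913_s_at in Rec-1 was -0.43, without a call. Without inhibitor replicate 1, which leaves that array alone in its group, the change was -1.10 and was called as lower. Its differences from the changes in Mino and SP-49 were then called too. These calls rest on 1 inhibitor array. On the same array 204915_s_at read 4.71, against 4.83 and 4.60 on the mock arrays. Of the 11 genes that go with SOX11, limma called 0 in any of the lines (0, 3 and 0 at an unadjusted p under 0.05), with medians of -0.02, -0.07 and -0.11. HES1, the classical direct target of Notch, fell on the same arrays from 5.86 and 5.67 to 2.23 and 1.70 in Rec-1 and from 6.11 and 5.77 to 2.53 and 2.33 in SP-49.

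CD5 likewise had no call. Probe set 230489_at read 3.83 and 4.22 with inhibitor in Mino, 2.23 and 2.96 in Rec-1 and 2.94 and 2.55 in SP-49, and each pair overlapped its mock pair. The changes were -0.34, 0.20 and 0.01, with intervals of -0.98 to 0.29, -0.44 to 0.84 and -0.63 to 0.65, which are too wide to set a change of 1.5-fold aside.

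FCER2 did not pass in any line. On 206760_s_at the inhibitor arrays read 2.28 and 2.40 in Mino, 2.21 and 2.87 in Rec-1 and 3.34 and 3.36 in SP-49, with changes of 0.29, -0.12 and -0.04. The 95% intervals were -0.18 to 0.76, -0.59 to 0.35 and -0.51 to 0.43. On 206759_at the changes were 0.02, -0.32 and 0.34. FCER2 is a known Notch target without a call here, and CD24 had every probe set called higher with inhibitor in Rec-1. For this reason the promoter sequences of these genes are shown. They are from RefSeq on GRCh38.p14, the 250 bases before a start, written in the direction of the gene. Capitals mark TGGGAA or its complement TTCCCA, the core letters that the Notch partner RBPJ is known to bind.
FCER2, upstream start, chr19:7702132-7702381, minus strand: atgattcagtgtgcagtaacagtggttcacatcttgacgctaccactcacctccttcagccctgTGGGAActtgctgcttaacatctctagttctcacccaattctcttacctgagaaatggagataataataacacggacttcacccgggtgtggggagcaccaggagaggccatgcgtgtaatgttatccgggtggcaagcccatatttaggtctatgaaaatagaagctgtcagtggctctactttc
FCER2, downstream start, chr19:7699442-7699691, minus strand: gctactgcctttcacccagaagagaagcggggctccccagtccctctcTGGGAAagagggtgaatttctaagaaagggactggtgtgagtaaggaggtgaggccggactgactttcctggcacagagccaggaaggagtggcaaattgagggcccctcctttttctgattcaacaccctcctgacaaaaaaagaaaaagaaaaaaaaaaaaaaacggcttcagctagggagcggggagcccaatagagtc
CD24, middle of 3 starts, chr6:106975466-106975715, minus strand: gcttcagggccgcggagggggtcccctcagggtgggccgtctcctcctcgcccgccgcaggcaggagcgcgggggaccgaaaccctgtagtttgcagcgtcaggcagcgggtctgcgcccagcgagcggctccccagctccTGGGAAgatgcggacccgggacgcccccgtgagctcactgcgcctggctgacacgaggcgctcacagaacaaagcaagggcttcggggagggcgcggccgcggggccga
Both FCER2 windows held 1 match, with the first base 186 and 202 bases before the start. The CD24 window held 1 match 109 bases before its start. Of the other CD24 windows in the table, 1 held a match and 1 none. The 6 letters, on either strand, were in 20.8% of 35116 windows of the same length, so a match describes the letters only. The E-box CACGTG, which MYC is known to bind, was in no window of these genes and in 6.34% of all. Of the 10 markers, 7 had a promoter in the table.

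No ROR1 probe set passed in any line. Probe set 232060_at went from 4.74 and 4.69 to 5.47 and 5.14 in Rec-1 (0.59, 95% interval 0.25 to 0.93; limma adjusted p = 0.0694). In SP-49 it went from 4.74 and 4.83 to 5.47 and 5.16 (0.53, 0.19 to 0.88; adjusted p = 0.369). On 205805_s_at the values were 5.71 and 5.10 in Rec-1 and 5.23 and 5.54 in SP-49 with inhibitor, with changes of 0.34 and 0.52. On the third, 211057_at, the change was 0.28 in Rec-1 and -0.15 in SP-49. The inhibitor arrays lay above the mock arrays for all 3 probe sets in Rec-1, and in SP-49 above them for 2 and below them for 211057_at. Non-overlap in either direction held for 41.8% and 40.1% of all probe sets in these lines. In Mino the changes of 205805_s_at and 232060_at were -0.05 and 0.15. Of 20 genes of ROR1 signalling limma called 0 in each line (4, 4 and 2 at an unadjusted p under 0.05).

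FMOD had opposite signs in Mino and the other lines. In Mino it read 3.47 and 3.75 with mock and 4.34 and 4.58 with inhibitor (0.85, 95% interval 0.39 to 1.31; limma adjusted p = 0.85). In Rec-1 it read 3.02 and 2.93 against 2.24 and 2.85 (-0.43, adjusted p = 0.359), and in SP-49 3.44 and 3.49 against 3.32 and 2.88 (-0.37, adjusted p = 0.793). The arrays did not overlap in any of the 3 lines. This was also true of 33.1%, 41.8% and 40.1% of all probe sets in the respective lines. The Rec-1 effect was below that in Mino by 1.28 (adjusted p = 0.0933) and the SP-49 effect by 1.22 (adjusted p = 0.493), so neither difference passed. Without inhibitor replicate 2 of Rec-1 the first was -1.59 and passed (adjusted p = 0.0361). None of 11 other small leucine-rich proteoglycans was called by limma in any line (0, 2 and 1 at an unadjusted p under 0.05).

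The ATM probe sets did not move together in Rec-1. The leading one, 212672_at, went from 4.96 and 5.30 to 5.79 and 5.90 (0.71, 95% interval 0.33 to 1.10; limma adjusted p = 0.0527), and 208442_s_at from 3.73 and 4.04 to 3.43 and 3.46 (-0.44, adjusted p = 0.23). The third, 210858_x_at, went from 5.14 and 5.18 to 5.45 and 5.04 (0.08). None passed, and 212672_at did so without either inhibitor array of SP-49 (adjusted p down to 0.0466). In SP-49 212672_at read 4.45 and 4.06 with inhibitor (-0.31) and in Mino 5.37 and 5.49 (0.09). Limma called 0 of 19 other ATM signalling genes in Rec-1 (5 at an unadjusted p under 0.05), with a median of -0.08. MME on 203435_s_at read 3.81 and 3.75 with inhibitor in Rec-1, above both mock arrays (0.42, adjusted p = 0.369), and changed by -0.08 in Mino and -0.03 in SP-49. CD200 stayed between 1.17 and 1.98 on all 12 arrays.

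The genes whose leading probe set ran most like a member over the 6 group means were found among 5514 genes whose means spanned at least 1. The 6 means come from 3 lines, so these correlations mostly describe differences between lines. They are the top values of a search over all these genes, so a high r is no test. RNF135 (r = 0.9996), RASSF4 (0.9991) and TCEAL8 (0.9988) ran most like SOX11. RNF135, a ubiquitin ligase, had means of 5.87 and 5.95 in Mino mock and inhibitor, 2.42 and 2.47 in Rec-1, and 7.48 and 7.44 in SP-49. GPR19, SYNGR1 and SYTL1 ran most like CD5 (0.9987, 0.9957 and 0.9953), and ATG4C, NUP62CL and ATXN7 most like FCER2 (0.9987, 0.9963 and 0.9948). LIMD1, NUDT17 and PXK ran most like MS4A1 (0.9957, 0.9942 and 0.994). EVI2A, CDKN2D and DERL3 ran most like CD24 (0.9939, 0.9936 and 0.9929). Being chosen for that likeness, each had its highest mean where CD24 did, in Rec-1 with inhibitor. For EVI2A this was 7.88 against 6.96 in Rec-1 mock. For ROR1, whose means spanned 0.68, the closest of 5515 genes were TLE5 (0.944), P2RY8 (0.887) and TBC1D10C (0.884).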

How the data were processed

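The values are the authors' deposited table of log2 expression for 54675 Affymetrix probe sets on 12 arrays. RMA and limma are named in the submitters' processing notes, without versions or roles. The log2 base was inferred from the range of the deposited values. After 62 control probe sets were set aside, 54613 were tested and none was removed for a low value. Probe sets took gene names from the platform annotation in GEO: 41091 name 1 gene, 1801 several and 11721 none, and 41037 were brought to current symbols by gene number. For gene lists, the probe set of highest mean stood for a gene.

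The model was fitted in R 4.3.3 by limma 3.58.1 (lmFit, eBayes with a constant prior), with 6 group means over all 12 arrays, 6 residual and 5.57 prior degrees of freedom. Tests were two-sided and adjusted by Benjamini-Hochberg over all 54613 probe sets within each comparison, with a threshold of 0.05. Intervals are for single probe sets. Tested on simulated data of the Rec-1 comparison, the fit recovered 1.47% of 68 probe sets changed by 0.5. It recovered 48.5% of 66 changed by 1 and 92.4% of 66 changed by 2. The changed probe sets all had a mean above the median value, and there were 5 false calls among the others. In the real comparison 1714 probe sets were called, so its adjusted threshold was less strict. The simulated rates are therefore not its power.

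All probe sets of the members were named whatever their p. Of each list up to 4 genes with the smallest adjusted p could be named, and a fixed set that included CCND1, HES1, MYC, CR2, SOX4, NPAT, CD3E and WNT5A. The members and lists were chosen with earlier results of these data known, and the lists were written from general knowledge. No scan date was used. Promoter letters were searched with python 3.11.15.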

Additional observations from a re-analysis of the deposited data

How the results depend on the processing

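Of 31 marker probe sets, 7 passed for the inhibitor in Rec-1. The count was 11 with an intensity trend and robust prior, 0 with only the arrays compared, 10 after quantile normalization was applied again, and 3 and 2 of 10 genes with 1 leading probe set or averaged probe sets (1 leading probe set in the reported fit). Leaving out 1 array gave 0 to 8, with 0 without mock replicate 1 or mock replicate 2 of Rec-1. For Rec-1 minus Mino in mock, 12 passed, and 4 of 10 genes did with means of probe sets, against 2 leading probe sets in the reported fit. Leaving out 1 array gave 8 to 15 there, 10 to 15 for SP-49 minus Mino and 11 to 14 for Rec-1 minus SP-49. The difference of inhibitor effects between Rec-1 and Mino had 0 calls. It had 1 with means of probe sets, 1 after quantile normalization, 1 without both doubted arrays, 7 with trend and robust prior, and 0 to 1 with 1 array left out. Between Rec-1 and SP-49 it had 0, then 4 with trend and robust prior and 0 to 1 with 1 array left out. The doubted arrays are the second inhibitor arrays of Rec-1 and SP-49, with the narrowest signal (SD 1.95 and 2.0).

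Whether equal replicate numbers mark paired arrays is not said in the sources used. Mock and inhibitor replicate differences correlated over probe sets at 0.048 in Mino, 0.069 in Rec-1 and -0.012 in SP-49. These values cannot settle it, since many probe sets are near background. With a replicate block, the Rec-1 inhibitor count was 5 and the mock counts were 12, 15 and 13. For 90 results of leading probe sets, 2061 comparisons of an alternative with the reported fit were made. The call was unchanged in 1998, lost in 23 and gained in 40, and 0 reversed direction with a call in either fit. Most of the 90 results had no call in the reported fit. Where neither fit had a call, a change of direction was not counted. Where 1 array was left out, the array left in that group borrowed its spread from the other groups. In the simulation, where few probe sets were changed, 1.47% of log2 changes of 0.5 were recovered, which does not measure power in the real comparison. For dim probe sets (CD200, FCER2, MME) signal over background limits what can be seen. The cause of these shifts was not tested.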
